A study of Mus musculus with 81 samples.

Results

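The genes of cholesterol and fatty acid synthesis were followed through 5 RNA sequencing experiments in a hybridoma line of mature mouse T cells. The members were a named list of 32 genes, taken as rows from a count table of 24391 gene symbols. They comprise 7 genes of the mevalonate steps, 11 of the squalene and sterol steps, 3 regulators of the SREBP pathway, 8 genes of fatty acid synthesis and desaturation, and 3 genes of sterol transport.

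Sterol and fatty acid synthesis are driven by the SREBP transcription factors, encoded by Srebf1 and Srebf2. These are held in the endoplasmic reticulum by the proteins SCAP and INSIG when sterols are plentiful and are cleaved and released to the nucleus when sterols run low. Acetyl-CoA is condensed to mevalonate, carried through isoprenoid intermediates to squalene, closed into lanosterol and then trimmed to cholesterol. Fatty acids are built from citrate-derived acetyl-CoA and are then elongated and desaturated. Excess sterol is sensed by the LXR receptors, which induce Srebf1 and the sterol exporters of the ABC family. Activated T cells draw on both routes for the membranes of dividing cells.

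RBPJ is the DNA-binding factor of the Notch pathway. It recruits corepressors when Notch is silent and joins the released Notch intracellular domain (NICD) to activate transcription. The first experiment set 2 lines in which RBPJ had been depleted by CRISPR/Cas9 (lines 2-12 and 2-14, 2 libraries each) against a control line (2 libraries). In the BioNICD1 experiment, RBPJ-depleted cells with biotin-tagged wild-type NICD1 (BioNICD1), depleted cells with the Biocontrol vector, control cells with BioNICD1 and control cells with Biocontrol were compared, with 3 libraries each. Which depleted line carried the vectors is not given in the sources used here. In the NICD1-ER experiment, cells carrying NICD1 fused to an estrogen receptor domain received 1 µM 4-hydroxytamoxifen (4-OHT) for 4, 8 or 24 h, or ethanol for 24 h. A further experiment set cells given DAPT at 20 µg/ml over 24 h (GSI, 2 libraries) against cells given DMSO (2 libraries). DAPT inhibits gamma-secretase and so blocks the release of NICD. The last set the RBPJ-binding protein KYOT2 fused to GFP, as wild type (WT) or as a WWAA mutant that does not bind RBPJ, against GFP alone, with 3 libraries each. All cells are derivatives of 1 hybridoma line. The labels do not say whether replicates were separate cultures, so p-values measure only the spread between these samples.

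Library totals ran from 2377028 to 14244209 counts over the 41 libraries used. Replicate 1 of the NICD1-ER groups with 24 h of ethanol and 24 h of 4-OHT had no matched column, which left 2 libraries in each. NICD1-ER replicates 1 and 2 at 4 h and at 8 h differed by less than sampling noise, unlike other pairs of their groups, and were summed, which left 2 samples in each NICD1-ER group. The 2 libraries of 24 h 4-OHT and the 2 of GSI also differed by no more than sampling noise. With no other pair in their groups to compare, they were kept as 2 samples each, so their spread may be technical. All 10 listed T cell markers reached 1 CPM (read count scaled to library size) in every experiment, and no listed B cell, fibroblast or adipocyte marker did. Of 4 listed hepatocyte markers 1, Ttr, did so, in the depletion experiment only (8.06 CPM at most). There the 4 summed to 0 to 8.27 CPM in the control line. The sums were 0.243 to 5.81 CPM in line 2-12 and 0 to 0.654 CPM in line 2-14, and their part was not tested. The targeted gene Rbpj had 44.2 and 31.4 CPM in line 2-12 and 59.6 and 41.8 CPM in line 2-14, against 182 and 133 CPM in the control line. With Biocontrol, Rbpj had 19.9, 19.3 and 18.7 CPM in depleted cells, against 90.1, 88.6 and 94.1 CPM in control cells. Residual Rbpj transcript was present in each depleted sample, at levels below every control sample.

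Of the 32 members, 29 passed the filter on low counts in every experiment. Hmgcs1, which encodes the cytosolic HMG-CoA synthase, had 0 counts in all 41 libraries. The limit that a count of 0 allows was 0.211 to 1.26 CPM, depending on the library. That limit holds only if reads of Hmgcs1 could be counted. Whether the gene was silent or missed by the counting was not tested. The desaturase gene Fads2 never exceeded 3 counts in a sample. The sterol exporter gene Abca1 never exceeded 26 counts in a sample and passed in the GSI experiment only, where 30 members were tested. Levels are CPM scaled by the TMM method (trimmed mean of M-values) within an experiment. They are not compared between genes or across experiments, since lengths were not used and experiments were normalised separately. A member was called when its adjusted p was under 0.05 in edgeR's quasi-likelihood F-test across all genes of that experiment.

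**Figure D1:**
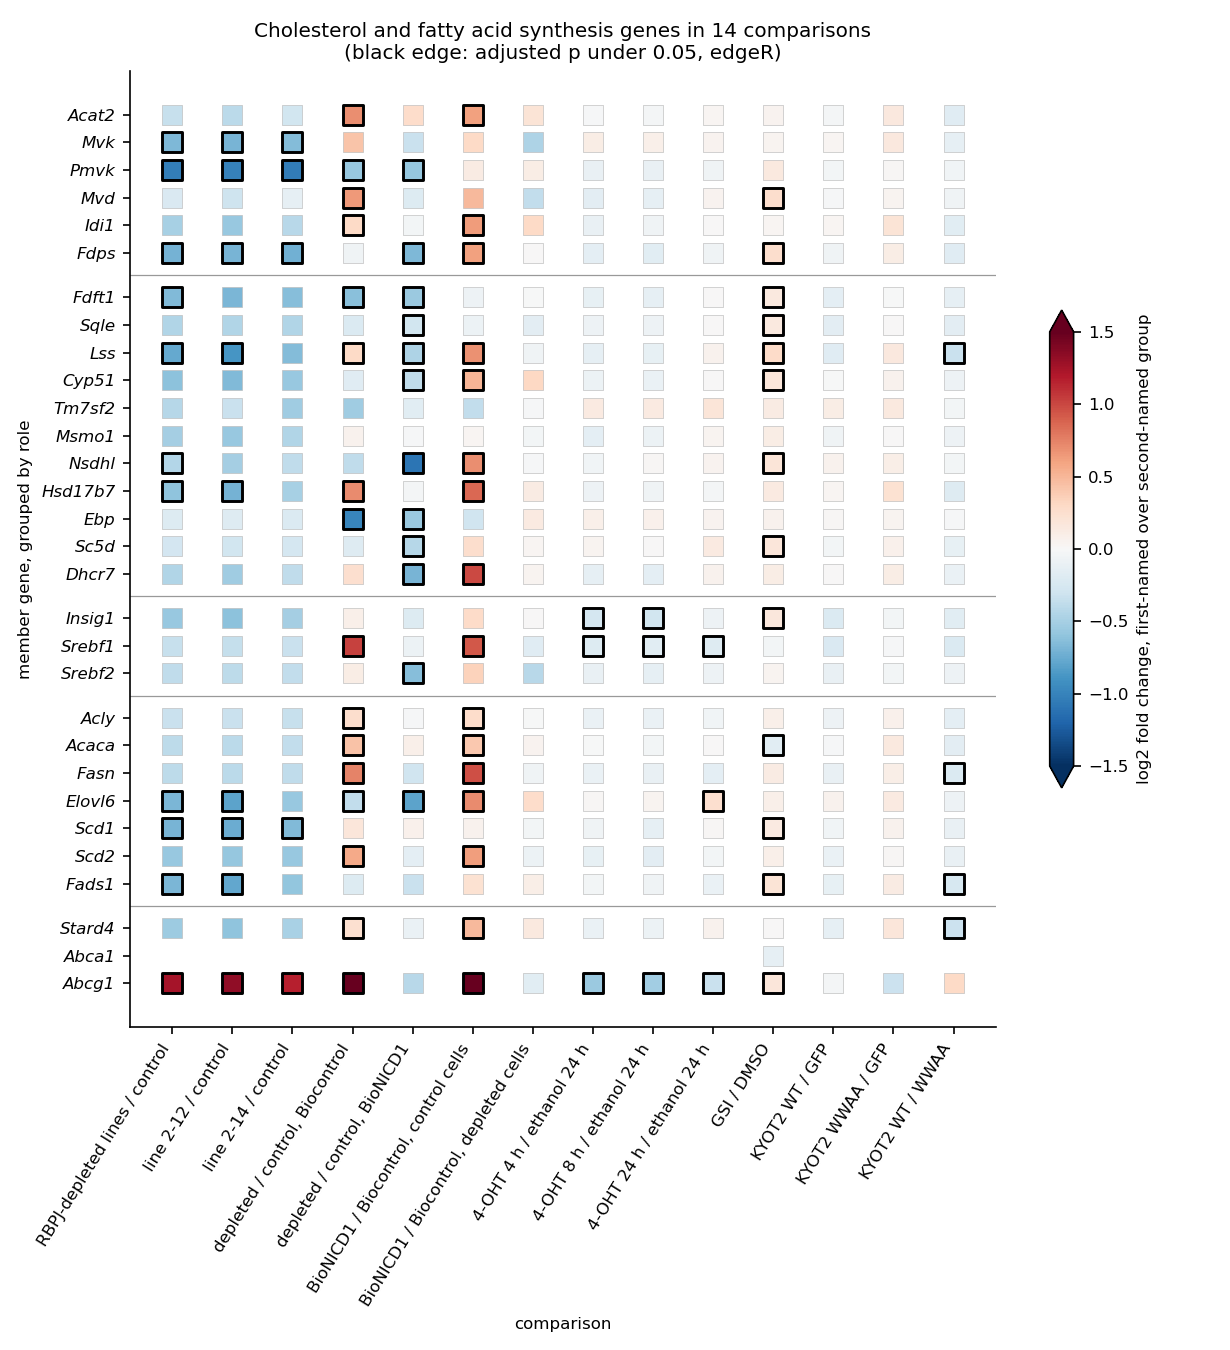
Log2 fold change of each tested member (rows, grouped by role in the order mevalonate, sterol, regulators, fatty acid, transport) in 14 comparisons (columns, first-named over second-named group); red is higher, blue is lower, and a black edge marks an adjusted p under 0.05 in edgeR. The depleted lines are blue in 28 of 29 members, and Abcg1 has the most black edges of any member.

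In both RBPJ-depleted lines together, genes of every synthetic role were lower and the sterol exporter gene Abcg1 was higher. Of 29 members tested, 10 fell and 1 rose, while 3.68% of all 11566 genes tested fell and 6.21% rose. The median log2 fold change of the tested members was −0.49, against −0.0045 for all genes. Fold changes were below 0 for 28 of the 29. In 26 of them every depleted sample lay below every control sample, which held for 21.4% of all genes. In bulk RNA, fewer cells of a type and less RNA per cell cannot be told apart.

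Among the mevalonate genes 3 of 6 tested fell. Pmvk, encoding phosphomevalonate kinase, had 55.3 and 52.3 CPM in line 2-12 and 52.0 and 52.8 CPM in line 2-14, against 127 and 92.6 CPM in the control line. The depleted samples lay close together, and both controls were well above them and further apart from each other (log2 fold change −1.03, SE 0.15, adjusted p = 0.0097). Fdps, encoding farnesyl diphosphate synthase, had 85.4 and 91.6 CPM in line 2-12 and 80.9 and 92.6 CPM in line 2-14, against 154 and 134 CPM in the control line. Mvk, encoding mevalonate kinase, had 48.1 and 53.8 CPM in line 2-12 and 52.7 and 52.8 CPM in line 2-14, against 80.8 and 84.1 CPM in the control line. For both genes the groups did not overlap (log2 fold change of Fdps −0.71, SE 0.11, adjusted p = 0.0142, Mvk −0.67, SE 0.11, adjusted p = 0.0168). Acat2, Mvd and Idi1 had log2 fold changes of −0.34, −0.23 and −0.49 and did not pass. Acat2 is a cytosolic thiolase whose reads may be shared with its close relatives and with a gene that overlaps it on the other strand, so its values are uncertain throughout.

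Of the 11 squalene and sterol genes 4 fell. Lss, encoding lanosterol synthase, which closes the sterol ring, had 274 and 245 CPM in line 2-12 and 307 and 302 CPM in line 2-14, against 543 and 414 CPM in the control line. Every depleted sample was below both controls (log2 fold change −0.76, SE 0.13, adjusted p = 0.0184). Fdft1, encoding squalene synthase, had 114 and 108 CPM in line 2-12 and 121 and 109 CPM in line 2-14, against 207 and 153 CPM in the control line. Hsd17b7, encoding a sterol 3-ketoreductase, had 106 and 118 CPM in line 2-12 and 123 and 136 CPM in line 2-14, against 176 and 188 CPM in the control line. Both sets of values were lower in all depleted samples (log2 fold change of Fdft1 −0.67, SE 0.14, adjusted p = 0.0317, Hsd17b7 −0.60, SE 0.10, adjusted p = 0.0167). Nsdhl, a sterol dehydrogenase of the demethylation step, also fell (log2 fold change −0.44, SE 0.10, adjusted p = 0.042). The other 7 had log2 fold changes between −0.61 (Cyp51, lanosterol demethylase) and −0.20 (Ebp, sterol isomerase) and did not pass.

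Promoter sequence was examined for the 24 members with a RefSeq promoter (mouse build GRCm38.p6, 250 bases before to 50 after the start). The motif CCAAT, bound by NF-Y, a partner of SREBP, was searched on both strands and was found in 19 of the 24 members (79.2%). It was found in 41.1% of 27025 genes and in 43.8% of 8697 genes tested in the GSI experiment. The sterol element TCACNCCAC was found in 1 of the 24 (4.17%), Hmgcs1, in 1.44% of all genes and in 1.37% of tested genes. Its inner letters CACNCCAC were found in 3 of the 24 (12.5%), in 7.12% of all genes and in 7.74% of tested genes. The RBPJ core motif TGGGAA was found in 7 of the 24 (29.2%), in 28.3% of all genes and in 25.9% of tested genes. The E-box CACGTG was found in 5 of the 24 (20.8%), in 8.09% of all genes and in 11.9% of tested genes. A match is a description of these letters and not a binding site. The 250 bases before the start are given for 4 members that recur in the comparisons, 5′ to 3′ on the gene's strand, with each CCAAT or its reverse complement ATTGG in capitals. They lie at chr10:76531355-76531604 (Lss, plus strand), chr1:169969206-169969455 (Hsd17b7, minus strand), chrX:72918271-72918520 (Nsdhl, plus strand) and chr11:120824548-120824797 (Fasn, minus strand). In Fasn a match on each strand overlaps.
Lss: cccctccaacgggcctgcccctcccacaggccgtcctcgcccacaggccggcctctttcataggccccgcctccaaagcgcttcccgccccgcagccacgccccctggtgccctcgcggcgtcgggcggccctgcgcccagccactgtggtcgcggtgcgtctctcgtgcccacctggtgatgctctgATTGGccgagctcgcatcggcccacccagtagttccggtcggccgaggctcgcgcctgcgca
Hsd17b7: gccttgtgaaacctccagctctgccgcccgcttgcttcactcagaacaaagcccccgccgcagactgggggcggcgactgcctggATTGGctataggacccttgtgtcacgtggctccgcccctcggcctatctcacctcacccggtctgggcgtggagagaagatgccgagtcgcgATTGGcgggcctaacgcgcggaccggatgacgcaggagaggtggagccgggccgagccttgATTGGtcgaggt
Nsdhl: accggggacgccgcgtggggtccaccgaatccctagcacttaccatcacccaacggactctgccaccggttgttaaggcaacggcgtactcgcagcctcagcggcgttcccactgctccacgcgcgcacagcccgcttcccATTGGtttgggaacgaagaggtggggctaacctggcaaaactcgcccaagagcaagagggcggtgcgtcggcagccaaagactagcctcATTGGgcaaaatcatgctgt
Fasn: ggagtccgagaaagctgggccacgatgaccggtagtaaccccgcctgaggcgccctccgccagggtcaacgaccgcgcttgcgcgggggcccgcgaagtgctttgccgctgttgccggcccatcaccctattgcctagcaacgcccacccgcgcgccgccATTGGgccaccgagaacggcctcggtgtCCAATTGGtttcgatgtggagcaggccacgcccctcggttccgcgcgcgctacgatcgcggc

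Among 7 tested genes of fatty acid synthesis 3 fell. Scd1, a stearoyl-CoA desaturase, had 239 and 228 CPM in line 2-12 and 230.1 and 263 CPM in line 2-14, against 420.5 and 361 CPM in the control line. Elovl6, the elongase of long-chain saturated fatty acids, had 98.8 and 94.5 CPM in line 2-12 and 94.9 and 132 CPM in line 2-14, against 156 and 180.4 CPM in the control line. Fads1, the delta-5 desaturase, had 90.5 and 86.9 CPM in line 2-12 and 84.4 and 116 CPM in line 2-14, against 149 and 154 CPM in the control line. All depleted samples lay below both controls for these genes, and replicate 2 of line 2-14 came nearest to them for Elovl6 and Fads1. Their log2 fold changes were −0.70 (SE 0.11, adjusted p = 0.0142) for Scd1, −0.69 (SE 0.15, adjusted p = 0.0356) for Elovl6 and −0.69 (SE 0.14, adjusted p = 0.0297) for Fads1. Scd2, the paralogue whose reads may be shared with Scd1, had 814 and 671 CPM in line 2-12 and 828 and 660.2 CPM in line 2-14, against 1374 and 842 CPM in the control line. The spread between the 2 controls of Scd2 was wider than its gap to the depleted samples, and it did not pass (log2 fold change −0.57, adjusted p = 0.137).

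No regulator passed in the depleted lines without the replicate block described below. Srebf2, the SREBP of sterol genes, had 431 and 391 CPM in line 2-12 and 440.2 and 398 CPM in line 2-14, against 590.1 and 494 CPM in the control line. Srebf1, the SREBP of fatty acid genes, had 267 and 296 CPM in line 2-12 and 285 and 291 CPM in line 2-14, against 371 and 353 CPM in the control line. Insig1, an SREBP target that retains SCAP, had 266 and 217 CPM in line 2-12 and 285 and 234 CPM in line 2-14, against 436 and 306 CPM in the control line. All depleted samples of these genes lay below both controls, at log2 fold changes of −0.38 (adjusted p = 0.0911) for Srebf2, −0.35 (adjusted p = 0.0686) for Srebf1 and −0.57 (adjusted p = 0.0884) for Insig1. With the replicate number as a block all 3 were called lower, at −0.38 (adjusted p = 0.00482) for Srebf2, −0.34 (adjusted p = 0.00939) for Srebf1 and −0.55 (adjusted p = 0.00107) for Insig1.

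Of 2 tested transport genes 1 rose. Abcg1, which exports cholesterol and is an LXR target, had 51.7 and 70.0 CPM in line 2-12 and 55.4 and 53.6 CPM in line 2-14, against 24.7 and 24.0 CPM in the control line. Each depleted sample was above both controls by a margin wider than the spread within groups (log2 fold change 1.25, SE 0.17, adjusted p = 0.00881). Stard4, a carrier of sterol between membranes, had a log2 fold change of −0.54 (adjusted p = 0.0986).

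**Figure D2:**
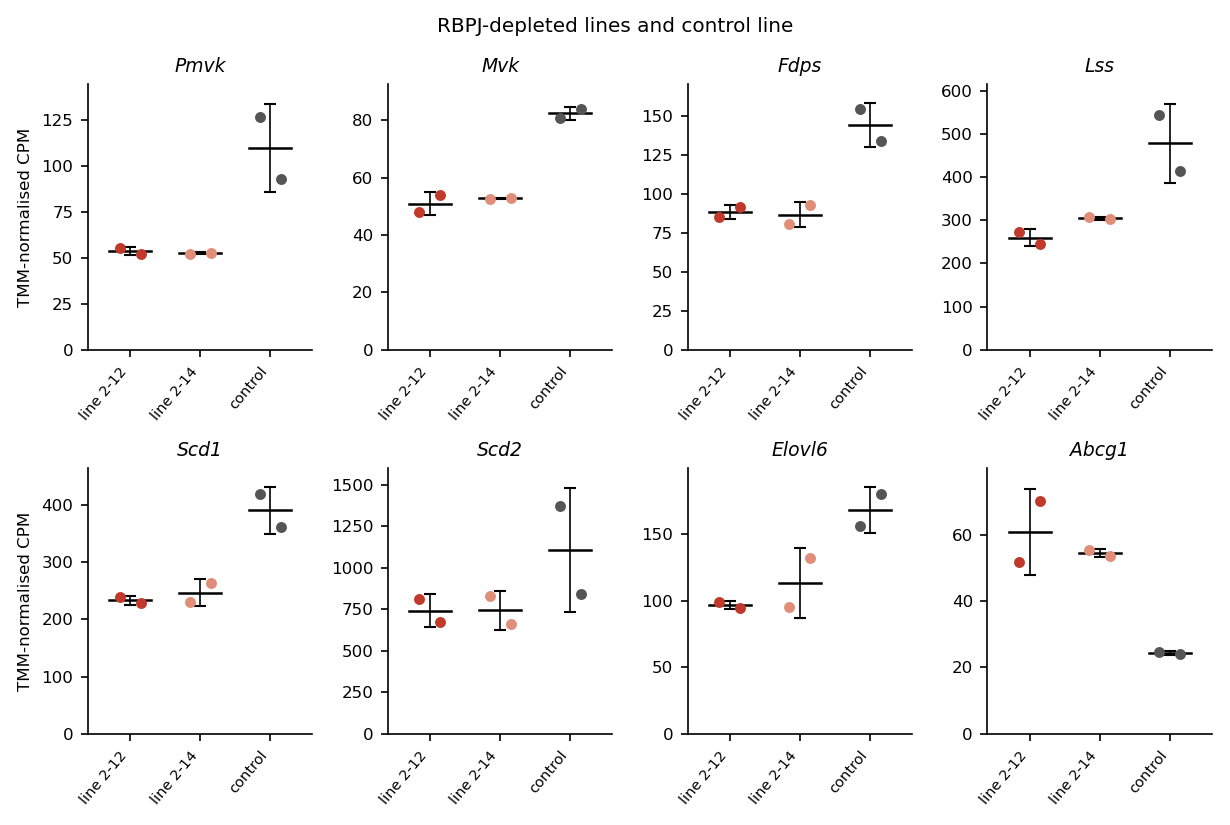
TMM-normalised CPM (y axis, linear from 0) of 8 members in lines 2-12, 2-14 and the control line (x axis, n = 2 each); points are samples, long bars are means and whiskers are SD. Every depleted sample is below both controls except for Abcg1, where every one is above.

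The 2 control libraries differed in depth and level. Control replicate 1 held 2377028 counts, the fewest of any library. The members made up 0.854% of its counts, against 0.740% in control replicate 2. Among members with values given above, it was the higher control for Pmvk, Fdps, Lss, Fdft1, Scd1, Scd2, Srebf2, Srebf1, Insig1 and Abcg1. It was the lower control for Mvk, Hsd17b7, Elovl6 and Fads1. Without control replicate 1, 2 members fell and none rose, where 3.16% of all genes were called against 9.89% with all libraries. The members' median was then −0.31, with log2 fold changes of −0.56 for Lss, −0.80 for Pmvk and 1.27 for Abcg1, which was no longer called. Without control replicate 2, 21 fell and 1 rose, where 21.4% of all genes were called. Without any 1 depleted library (replicates 1 and 2 of each line in turn), 3 to 5 fell and 1 rose, where 4.07% to 4.85% of all genes were called. Libraries of the same replicate number deviated together in this experiment, and with the replicate number as a block 27 members fell and 1 rose, where 36.8% of all genes were called. Ebp was the 1 member not called with the block (log2 fold change −0.20, adjusted p = 0.078), and members given above as not passing had values such as −0.54 (adjusted p = 0.00356) for Scd2 and −0.53 (adjusted p = 0.00163) for Stard4 with it. The 5 listed myeloid markers, mostly Cd68, summed to 21.1 to 30.6 CPM in depleted samples and 45.3 to 58.5 CPM in controls. Itgam, another of the 5, had 3.16 and 3.42 CPM in line 2-12 and 0 and 0.327 CPM in line 2-14, against 0 and 0 CPM in the control line. The 3 erythroid markers summed to 6.49 to 9.95 CPM in depleted samples and 13.0 to 14.9 CPM in controls. The part of either in these results was not tested.

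Line by line, 8 members fell and 1 rose in line 2-12, where 2.13% of genes fell and 4.83% rose. In line 2-14, 4 fell and 1 rose, where 1.65% of genes fell and 3.4% rose. Without control replicate 2 the called members were 19 in line 2-12 and 11 in line 2-14 (16.3% and 11.1% of all genes), and without control replicate 1 there was 1 in each (2.44% and 2.12% of all genes). In line 2-12 the count was 0 or 1 without either of its own libraries and 5 without line 2-14 replicate 2. In line 2-14 it was 0 without either of its own libraries and 2 without either library of line 2-12. With the replicate block the counts were 25 lower and 1 higher in line 2-12, and 24 lower and 1 higher in line 2-14, where 31.7% and 28% of all genes were called. Pmvk (log2 fold change −1.02 in line 2-12 and −1.05 in line 2-14), Fdps (−0.70 and −0.73 in the same order), Mvk, Scd1 and Abcg1 were called in each line. Set directly against each other, the lines differed in none of the members, and 0.484% of genes were called. DESeq2 and the fit with the replicate block also called 0 members between the lines, and 0 had an unadjusted p under 0.05. The members' log2 differences of line 2-12 over line 2-14 ran from −0.24 (Elovl6) to 0.20 (Tm7sf2).

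Few genes of the same pathways outside the list were called in the depleted lines. Of 11 other genes of sterol synthesis and uptake 1 rose and none fell, with a median log2 fold change of −0.12. Of 18 other fatty acid synthesis genes 1 fell, the phosphatidate phosphatase gene Lpin1 (log2 fold change −1.03, SE 0.15, adjusted p = 0.0119). Of 11 other SREBP and LXR pathway genes 1 rose, the SREBP-cleaving protease gene Mbtps1 (log2 fold change 0.58, SE 0.10, adjusted p = 0.0193). Of 15 genes of fatty acid oxidation Cpt1a, the mitochondrial carnitine palmitoyltransferase, rose (log2 fold change 0.68, SE 0.16, adjusted p = 0.048) and the enoyl-CoA isomerase gene Eci2 fell (log2 fold change −0.41, SE 0.092, adjusted p = 0.0412).

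The BioNICD1 experiment held 2 depleted libraries that stood apart from their groups. Residuals from the group mean (root mean square over 11315 genes, log2) were 0.34 for depleted cells with BioNICD1 replicate 1 and 0.299 for depleted cells with Biocontrol replicate 3. The other 10 libraries were at 0.153 to 0.243. Counts are therefore also given without both libraries, an alternative chosen after the data were seen. The comparisons of this experiment share libraries and are set side by side, not counted as independent.

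BioNICD1 came with no called member in RBPJ-depleted cells and with higher levels across the pathway in control cells. In depleted cells edgeR called 0 of 29 members, where 4.14% of genes were called, and the members' median log2 fold change was −0.011. DESeq2 also called 0, and 4 members had an unadjusted p under 0.05. Without depleted Biocontrol replicate 3 or without depleted BioNICD1 replicate 2 the count was 1. In control cells 16 of 29 members rose and none fell, while 18.7% of all genes rose. The median in control cells was 0.49, against 0.013 for all genes. The difference between the effects, taken as the BioNICD1 log2 fold change in depleted cells minus that in control cells, was called for 12 members, all negative, where 13.3% of genes were called in that direction. Without both distant libraries, 1 member fell in depleted cells (Srebf2), 21 rose and 1 fell (Ebp) in control cells, and the difference was called for 18 members as negative and 1 as positive. The shares of all genes called in those fits were 11.2% in depleted cells, 51.4% in control cells and 40.7% for the difference, against 4.14%, 32.9% and 22.5% with all libraries.

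Of the mevalonate genes 3 rose with BioNICD1 in control cells. Idi1, isopentenyl diphosphate isomerase, had 90.2, 65.1 and 75.9 CPM with BioNICD1, against 60.0, 60.3 and 67.9 CPM with Biocontrol, in depleted cells. In control cells Idi1 had 82.7, 74.7 and 79.9 CPM with BioNICD1, against 49.0, 51.5 and 51.9 CPM with Biocontrol. The control groups did not overlap (log2 fold change 0.64, SE 0.11, adjusted p = 0.00082), and the depleted groups overlapped. Acat2 had 32.8, 33.4 and 37.0 CPM with BioNICD1, against 23.1, 21.9 and 22.2 CPM with Biocontrol, in control cells, and rose (log2 fold change 0.62, SE 0.11, adjusted p = 0.00102). Fdps had 27.3, 40.7 and 36.7 CPM with BioNICD1, against 35.7, 39.5 and 28.8 CPM with Biocontrol, in depleted cells. In control cells Fdps had 52.3, 57.5 and 57.5 CPM with BioNICD1, against 35.2, 36.2 and 37.5 CPM with Biocontrol. The Fdps groups were separate in control cells (log2 fold change 0.62, SE 0.14, adjusted p = 0.00535) and overlapped in depleted cells, and the difference between these effects was −0.61 (SE 0.20, adjusted p = 0.0479). Mvd, the decarboxylase, had 15.2, 23.7 and 21.5 CPM with BioNICD1, against 26.7, 31.2 and 20.1 CPM with Biocontrol, in depleted cells. In control cells Mvd had 21.0, 27.2 and 21.7 CPM with BioNICD1, against 16.2, 18.4 and 15.2 CPM with Biocontrol. For Mvd the difference between effects was −0.86 (SE 0.27, adjusted p = 0.0384), although neither BioNICD1 effect passed (log2 fold change 0.49, adjusted p = 0.07 in control cells).

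Of the 11 squalene and sterol genes 5 rose with BioNICD1 in control cells. Dhcr7, the last reductase of the cholesterol route, had 24.7, 34.6 and 34.9 CPM with BioNICD1, against 29.0, 36.6 and 25.5 CPM with Biocontrol, in depleted cells. In control cells Dhcr7 had 47.5, 50.8 and 54.6 CPM with BioNICD1, against 23.4, 24.7 and 28.5 CPM with Biocontrol. Dhcr7 was separated in control cells (log2 fold change 1.00, SE 0.16, adjusted p = 0.000372), its depleted groups overlapped, and the effects differed by −0.95 (SE 0.22, adjusted p = 0.00982). Lss had 92.0, 109.9 and 114 CPM with BioNICD1, against 118, 112 and 101 CPM with Biocontrol, in depleted cells. In control cells Lss had 138, 152 and 145 CPM with BioNICD1, against 90.0, 89.8 and 89.9 CPM with Biocontrol. The tight control groups of Lss were far apart (log2 fold change 0.69, SE 0.096, adjusted p = 0.000142), the depleted groups overlapped, and the effects differed by −0.76 (SE 0.14, adjusted p = 0.00191). Hsd17b7 had 29.9, 36.1 and 41.4 CPM with BioNICD1, against 19.4, 19.9 and 19.8 CPM with Biocontrol, in control cells, and rose (log2 fold change 0.86, SE 0.14, adjusted p = 0.000503). Nsdhl had 8.58, 11.3 and 11.5 CPM with BioNICD1, against 10.8, 11.8 and 9.15 CPM with Biocontrol, in depleted cells. In control cells Nsdhl had 22.4, 19.3 and 25.6 CPM with BioNICD1, against 12.9, 14.4 and 14.3 CPM with Biocontrol. All depleted samples of Nsdhl were below all control samples, and it rose with BioNICD1 in control cells (log2 fold change 0.69, SE 0.15, adjusted p = 0.00316). Cyp51 also rose in control cells (log2 fold change 0.51, adjusted p = 0.0107).

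Among the regulators Srebf1 rose with BioNICD1 in control cells. Srebf1 had 51.7, 112 and 91.7 CPM with BioNICD1, against 104, 119 and 66.7 CPM with Biocontrol, in depleted cells, a wide spread in which the lowest value of each group came from its distant library. In control cells Srebf1 had 79.4, 104 and 87.7 CPM with BioNICD1, against 46.8, 47.2 and 48.2 CPM with Biocontrol, with no overlap (log2 fold change 0.93, SE 0.25, adjusted p = 0.0137). The effects on Srebf1 differed by −1.11 (SE 0.35, adjusted p = 0.041), and without both distant libraries by −1.05 (adjusted p = 7.67e-05). Srebf2 had 314, 384 and 354 CPM with BioNICD1, against 268, 272 and 289.6 CPM with Biocontrol, in control cells, and did not pass (log2 fold change 0.34, adjusted p = 0.182). Insig1 had 154, 164 and 158 CPM with BioNICD1, against 139.6, 132 and 117 CPM with Biocontrol, in control cells, and did not pass (log2 fold change 0.29, adjusted p = 0.0557). The groups of both genes were separate all the same. Without the distant libraries both passed (0.34, adjusted p = 0.00439 for Srebf2 and 0.29, adjusted p = 0.0083 for Insig1). Those libraries were from depleted cells, so the control samples and their fold changes stayed the same. In that fit 51.4% of all genes were called in control cells, against 32.9% with all libraries.

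Of the 7 fatty acid genes tested 5 rose with BioNICD1 in control cells. Fasn, the fatty acid synthase, had 248, 437 and 343 CPM with BioNICD1, against 376, 433 and 269 CPM with Biocontrol, in depleted cells. In control cells Fasn had 398, 431 and 429 CPM with BioNICD1, against 218, 208 and 219 CPM with Biocontrol. Fasn rose in control cells (log2 fold change 0.97, SE 0.20, adjusted p = 0.00225), its depleted groups overlapped widely, and the effects differed by −1.04 (SE 0.27, adjusted p = 0.0186). Elovl6 had 103, 76.2 and 87.2 CPM with BioNICD1, against 51.1, 57.3 and 55.1 CPM with Biocontrol, in control cells, and rose (log2 fold change 0.70, SE 0.13, adjusted p = 0.00141). Scd2 had 1951, 1930.5 and 2048 CPM with BioNICD1, against 2138, 2136 and 2043 CPM with Biocontrol, in depleted cells. In control cells Scd2 had 2169, 2104 and 2288 CPM with BioNICD1, against 1389, 1405 and 1458 CPM with Biocontrol. Scd2 rose in control cells (log2 fold change 0.63, SE 0.10, adjusted p = 0.00049), and the effects differed by −0.72 (SE 0.14, adjusted p = 0.00402). Acaca, acetyl-CoA carboxylase, and Acly, ATP citrate lyase, rose by 0.40 and 0.27 on the log2 scale. For Acaca the effects in depleted and control cells differed by −0.35 (SE 0.12, adjusted p = 0.0469).

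The transport genes both rose with BioNICD1 in control cells. Abcg1 had 5.96, 4.81 and 5.42 CPM with BioNICD1, against 7.02, 6.23 and 4.82 CPM with Biocontrol, in depleted cells. In control cells Abcg1 had 6.79, 6.86 and 7.84 CPM with BioNICD1, against 2.91, 1.84 and 1.61 CPM with Biocontrol. Control cells with Biocontrol were the low group (log2 fold change 1.76, SE 0.22, adjusted p = 7.28e-05), and both depleted groups lay above them and overlapped each other. The effects on Abcg1 in depleted and control cells differed by −1.93 (SE 0.30, adjusted p = 0.000737). Stard4 had 152, 138 and 143 CPM with BioNICD1, against 126, 135 and 130.1 CPM with Biocontrol, in depleted cells. In control cells Stard4 had 157, 150.1 and 157 CPM with BioNICD1, against 105, 113 and 112 CPM with Biocontrol. The groups did not overlap in either kind of cell, Stard4 rose in control cells (log2 fold change 0.49, SE 0.075, adjusted p = 0.000309), and the effects differed by −0.34 (SE 0.11, adjusted p = 0.0372).

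**Figure D3:**
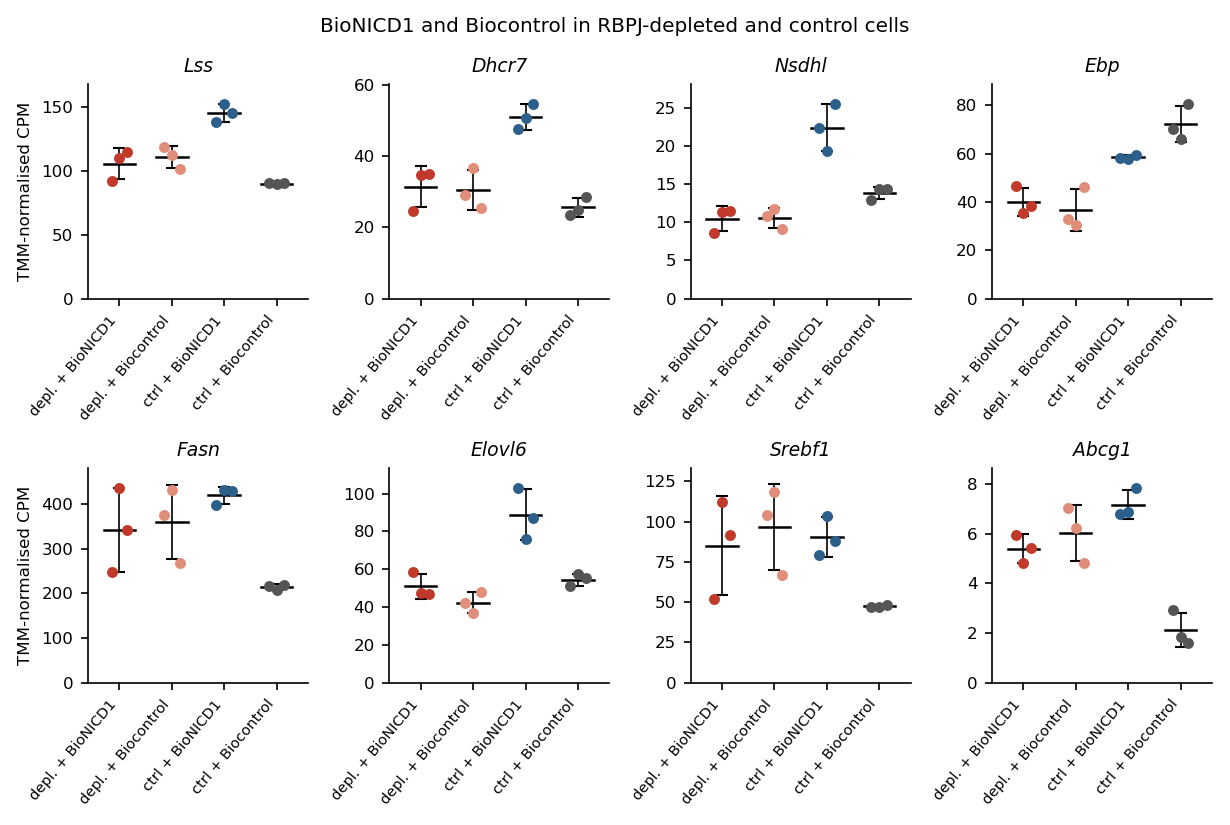
TMM-normalised CPM (y axis, linear from 0) of 8 members in RBPJ-depleted cells with BioNICD1 or Biocontrol and in control cells with BioNICD1 or Biocontrol (x axis, n = 3 each); points are samples, long bars are means and whiskers are SD. In control cells BioNICD1 samples lie above Biocontrol samples except for Ebp, and in depleted cells the 2 groups overlap.

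Of the 16 members that rose in control cells, 13 kept the call whichever library was left out, the exceptions being Srebf1, Cyp51 and Acly. For the difference between effects, Abcg1, Dhcr7, Lss and Scd2 kept it. The count of 29 was 5 to 7 without any 1 library of control cells with Biocontrol or without replicate 3 of control cells with BioNICD1. It was also 5 to 7 without replicate 1 or 2 of depleted cells with Biocontrol. In those fits 14.1% to 16.4% of all genes were called in either direction, against 22.5% with all libraries. Summed T cell markers were at 2195 to 2281 CPM with BioNICD1 and 1581 to 1682 CPM with Biocontrol in control cells, and their part in these results was not tested. Among the called genes of the other pathway lists, the effects differed most for Lpcat3 (log2 −1.31), Nr1h2 (−1.16), which encodes LXR beta, and Apoe (0.87). In control cells 4 of 11 other sterol genes rose and none fell. Of the 11 other SREBP and LXR pathway genes 3 rose and 3 fell, with Lpcat3, a phospholipid acyltransferase and LXR target, at 0.89 (adjusted p = 0.00466) and Mylip, a ubiquitin ligase induced by LXR, at 0.79 (adjusted p = 0.0129). Of the 15 oxidation genes 1 rose, the thiolase gene Acaa2 (log2 fold change 0.66, adjusted p = 0.000562), and 5 fell.

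With Biocontrol, RBPJ depletion split the members. Of 29 tested 12 rose and 4 fell, while 21.7% of all genes rose and 20.3% fell, and the median log2 fold change was 0.18, against 0.023 for all genes. Without both distant libraries 15 rose and 5 fell, where 58.8% of all genes were called. Among mevalonate genes Acat2 had 34.8, 37.7 and 36.1 CPM in depleted cells, against 23.1, 21.9 and 22.2 CPM in control cells (log2 fold change 0.69, SE 0.11, adjusted p = 0.000333). Mvd had 26.7, 31.2 and 20.1 CPM in depleted cells, against 16.2, 18.4 and 15.2 CPM in control cells (log2 fold change 0.65, SE 0.19, adjusted p = 0.016). Pmvk had 26.6, 24.8 and 29.1 CPM in depleted cells, against 40.5, 39.7 and 38.8 CPM in control cells (log2 fold change −0.56, SE 0.092, adjusted p = 0.000381). The groups did not overlap for any of these, with Acat2 and Mvd higher and Pmvk lower in depleted cells. Among sterol genes Ebp had 33.0, 30.3 and 46.4 CPM in depleted cells, against 70.1, 66.1 and 80.5 CPM in control cells (log2 fold change −0.99, SE 0.15, adjusted p = 0.00025). Hsd17b7 had 32.3, 36.6 and 27.5 CPM in depleted cells, against 19.4, 19.9 and 19.8 CPM in control cells (log2 fold change 0.71, SE 0.14, adjusted p = 0.00163). Fdft1 had 53.6, 48.6 and 52.6 CPM in depleted cells, against 77.7, 79.5 and 81.6 CPM in control cells (log2 fold change −0.63, SE 0.089, adjusted p = 0.000139). Hsd17b7 was above and Ebp and Fdft1 were below in every depleted sample.

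Srebf1 rose in depleted cells with Biocontrol (log2 fold change 1.03, SE 0.25, adjusted p = 0.00611), and the other regulators did not pass. Srebf2 had 309, 367 and 222 CPM in depleted cells, against 268, 272 and 289.6 CPM in control cells. Insig1 had 127, 147 and 138 CPM in depleted cells, against 139.6, 132 and 117 CPM in control cells. The groups overlapped for both. Of the fatty acid genes Fasn rose (log2 fold change 0.74, SE 0.19, adjusted p = 0.0087), as did Scd2 (log2 fold change 0.57, SE 0.10, adjusted p = 0.000737), Acaca, which had 68.6, 70.3 and 66.1 CPM in depleted cells, against 49.2, 51.0 and 51.0 CPM in control cells, and Acly, while Elovl6 fell (log2 fold change −0.37, SE 0.14, adjusted p = 0.0418). Abcg1 rose by 1.52 and Stard4 by 0.24 on the log2 scale. Of these 16 members 10 kept the call whichever library was left out, and Elovl6, Lss, Idi1, Mvd, Acly and Stard4 did not. Summed myeloid markers were at 9.39 to 13.2 CPM in depleted cells and at 30.8 to 34.4 CPM in control cells, and their part was not tested. Outside the list, Lpin1 (log2 fold change −0.99, adjusted p = 6.27e-06) and Apoe, the lipid carrier (log2 fold change −0.92, adjusted p = 0.000769), fell.

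With BioNICD1 present in both, depleted cells differed in the lower direction. Of 29 members 12 fell and none rose, while 21.4% of all genes fell, and the median was −0.29, against −0.0035 for all genes. Without both distant libraries 13 fell and 1, Acat2, rose, where 45.3% of all genes were called. Sterol genes made up 8 of the 12. Nsdhl, with values given above, was lower in every depleted sample (log2 fold change −1.10, SE 0.15, adjusted p = 0.000101), as was Dhcr7 (log2 fold change −0.70, SE 0.15, adjusted p = 0.00321). Ebp had 46.5, 35.3 and 38.2 CPM in depleted cells, against 58.1, 57.9 and 59.4 CPM in control cells (log2 fold change −0.55, SE 0.15, adjusted p = 0.0118). Fdft1 had 56.5, 45.4 and 51.8 CPM in depleted cells, against 72.3, 76.3 and 77.3 CPM in control cells, with no overlap (log2 fold change −0.56, SE 0.089, adjusted p = 0.000351). Fdps (log2 fold change −0.67, SE 0.14, adjusted p = 0.00244) and Pmvk (log2 fold change −0.57, SE 0.091, adjusted p = 0.000326) were the mevalonate genes that fell. Srebf2 had 165, 259.7 and 249 CPM in depleted cells, against 314, 384 and 354 CPM in control cells, with the distant library the lowest (log2 fold change −0.64, SE 0.19, adjusted p = 0.0173). Elovl6 had 58.4, 47.5 and 46.8 CPM in depleted cells, against 103, 76.2 and 87.2 CPM in control cells, with no overlap (log2 fold change −0.80, SE 0.13, adjusted p = 0.000441). The 10 T cell markers summed to 1475 to 1516 CPM in depleted cells and 2195 to 2281 CPM in control cells, with 6 of the 10 lower and a median log2 fold change of −0.45. The myeloid markers summed to 10.1 to 11.9 CPM in depleted cells and 26.6 to 28.2 CPM in control cells. The part of either in this result was not tested. Outside the list Soat1, which esterifies cholesterol (log2 fold change −0.94, adjusted p = 1.36e-06), and Npc2, a lysosomal sterol carrier gene (log2 fold change −0.93, adjusted p = 3.82e-06), fell.

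The RBPJ depletions without and with Biocontrol were run in separate experiments with separate controls. Of the 10 members that fell in the lines, 3 also fell with Biocontrol (Elovl6, Fdft1 and Pmvk), 2 rose (Hsd17b7 and Lss) and 5 were not called (Fads1, Fdps, Mvk, Nsdhl and Scd1). Abcg1 rose in both. In 11 members every depleted sample was below every control in the lines and above every control with Biocontrol, which held for 3.71% of genes tested in both. With Biocontrol alone, 13 members were above in every depleted sample, against 27.2% of genes. The 11 were Lss, Idi1, Hsd17b7, Acat2, Srebf1, Scd1, Scd2, Fasn, Acaca, Acly and Stard4. Fasn had 581 and 625 CPM in line 2-12 and 594 and 632 CPM in line 2-14, against 809 and 788 CPM in their control, a log2 fold change of −0.39 where that with Biocontrol was 0.74. The difference between the 2 depletions was not tested, and experiment and vector cannot be told apart.

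**Figure D4:**
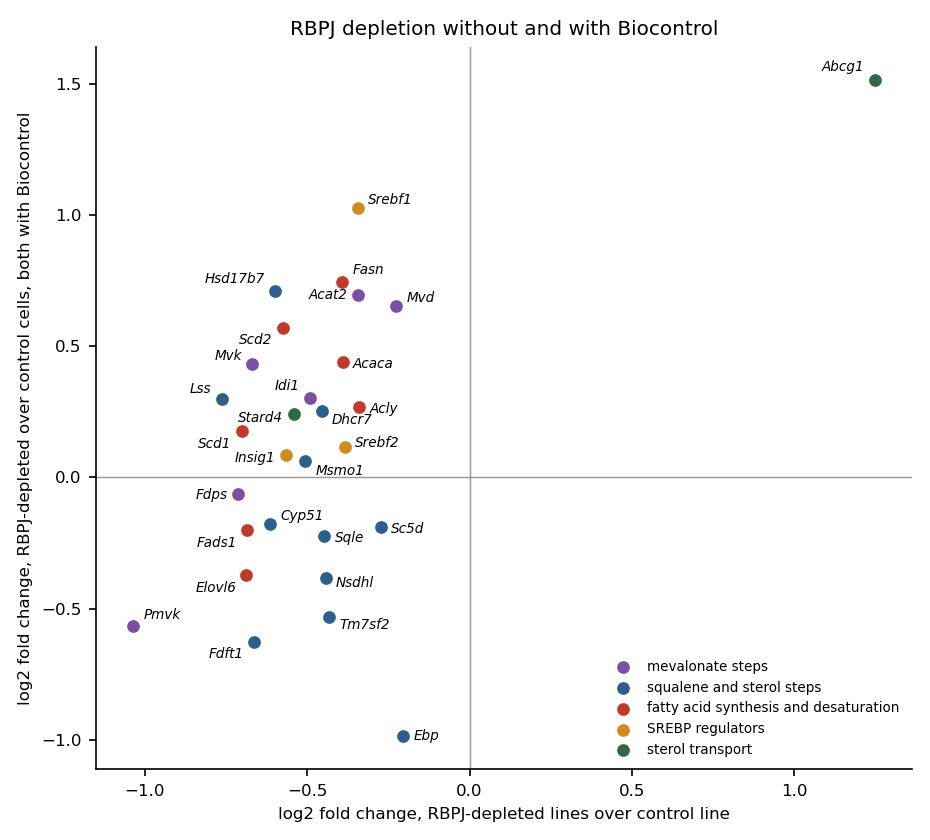
Log2 fold change of the 29 tested members in the RBPJ-depleted lines over the control line (x axis) and in depleted over control cells with Biocontrol (y axis), coloured by role. Abcg1 is at the upper right, Pmvk, Fdft1 and Elovl6 are lower in both, and Srebf1, Fasn, Hsd17b7 and Scd2 are lower on the x axis and higher on the y axis.

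After activation of NICD1-ER the changes were small. The comparisons at 4 and 8 h used ethanol at 24 h, and all 3 comparisons share those 2 ethanol samples. At 4 h 3 of 29 members fell, at 8 h 3 fell, and at 24 h 2 fell and 1 rose. Of all genes 3.09% fell at 4 h, 5.31% at 8 h and 4.22% at 24 h, and 6.59% rose at 24 h. The members' median log2 fold changes were −0.097, −0.098 and 0.0074 at 4, 8 and 24 h. Abcg1, Insig1 and Srebf1 were the genes lower at 4 and at 8 h, and Abcg1 and Srebf1 were still lower at 24 h.

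Abcg1 had 42.7 and 37.9 CPM in ethanol, 27.6 and 26.5 CPM at 4 h, 28.9 and 26.6 CPM at 8 h and 32 and 31.4 CPM at 24 h of 4-OHT. All 4-OHT samples were below both ethanol samples, and the log2 fold changes were −0.56 (SE 0.099, adjusted p = 0.00195) at 4 h, −0.52 (SE 0.098, adjusted p = 0.00218) at 8 h and −0.34 (SE 0.10, adjusted p = 0.0462) at 24 h. Insig1 had 248 and 237 CPM in ethanol, 200.4 and 204 CPM at 4 h, 199 and 196 CPM at 8 h and 219.6 and 241 CPM at 24 h. It was lower at 4 h (log2 fold change −0.26, SE 0.050, adjusted p = 0.00426) and 8 h (log2 fold change −0.29, SE 0.050, adjusted p = 0.000995), and its 24 h samples overlapped ethanol (log2 fold change −0.073, adjusted p = 0.493). Srebf1 had 332 and 312 CPM in ethanol, 287 and 269.6 CPM at 4 h, 295 and 275 CPM at 8 h and 285 and 278 CPM at 24 h. Its log2 fold changes were −0.20 (SE 0.052, adjusted p = 0.0281) at 4 h, −0.17 (SE 0.051, adjusted p = 0.0492) at 8 h and −0.19 (SE 0.053, adjusted p = 0.0277) at 24 h, and no 4-OHT sample overlapped ethanol. Elovl6 had 129 and 146 CPM in ethanol, 135 and 147 CPM at 4 h, 140.4 and 144 CPM at 8 h and 164 and 164 CPM at 24 h, and rose at 24 h (log2 fold change 0.25, SE 0.063, adjusted p = 0.016). Srebf2 had 427 and 406 CPM in ethanol, 388 and 383 CPM at 4 h, 378 and 382 CPM at 8 h and 394 and 399 CPM at 24 h. Its 4-OHT samples were all below ethanol, at log2 fold changes of −0.11, −0.13 and −0.072 at 4, 8 and 24 h, and it did not pass.

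Between 24 h and 4 h of 4-OHT, 4 members were higher at the later time and none lower, where 8% of genes were higher. Lss had 279 and 296 CPM at 24 h, against 249 and 252 CPM at 4 h (log2 fold change 0.20, SE 0.045, adjusted p = 0.00696). Msmo1, the sterol C4-methyl oxidase, had 109 and 109.8 CPM at 24 h, against 95.9 and 95.6 CPM at 4 h (log2 fold change 0.19, SE 0.053, adjusted p = 0.0246). The 24 h samples of both genes were above both 4 h samples, and the same held for Insig1 (log2 fold change 0.19, SE 0.050, adjusted p = 0.0203) and Elovl6 (log2 fold change 0.23, SE 0.059, adjusted p = 0.0155). DESeq2 called none of these at 4 h, 24 h or between the times, and 1 at 8 h. Without ethanol replicate 2, or without either 24 h sample, no member was called at 24 h, and between the times 2 were called without 24 h replicate 2 and none without 24 h replicate 3. Without ethanol replicate 3 or either 4 h sample the 8 h count was 5 to 7. Summed myeloid markers, mostly Cd68, were at 38.7 to 42.3 CPM in ethanol, at 27.1 to 31.6 CPM at 4 and 8 h and at 40.3 to 41.1 CPM at 24 h, and their part was not tested. Outside the list Lpin1 fell at 4 h (log2 fold change −0.45, adjusted p = 4e-05) and 8 h (log2 fold change −0.47, adjusted p = 1.38e-05), as did the citrate carrier gene Slc25a1 (−0.32 at 4 h), and the acetyl-CoA synthetase gene Acss2 fell at 8 h (−0.36). At 24 h the lysosomal lipase gene Lipa rose (0.49), and Acsl3, a fatty acyl-CoA synthetase gene (−0.24), and Cpt1a (−0.22) fell. Between 24 h and 4 h Acss2 (0.40), Lipa (0.40) and Lpin1 (0.39) were higher at 24 h.

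**Figure D5:**
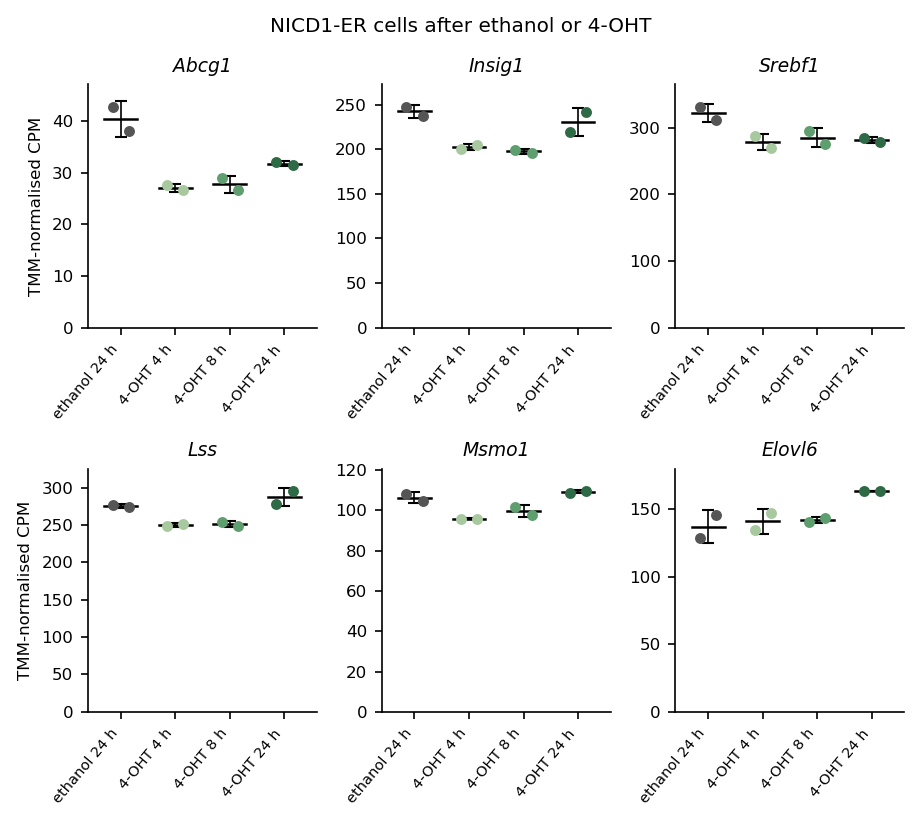
TMM-normalised CPM (y axis, linear from 0) of 6 members in NICD1-ER cells after ethanol for 24 h or 4-OHT for 4, 8 and 24 h (x axis, n = 2 samples each, replicates 1 and 2 summed at 4 and 8 h); points are samples, long bars are means and whiskers are SD. Abcg1 is lower in every 4-OHT sample, and Lss and Msmo1 are lower at 4 h than at 24 h.

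With GSI 12 of 30 members rose and 1 fell, while 9.16% of all genes rose and 11.6% fell. The median log2 fold change was 0.12, against 0.0018 for all genes, and 27 of the 30 were above 0. Sterol genes made up 6 of the 12. Lss had 358 and 355 CPM with GSI, against 298 and 286 CPM with DMSO (log2 fold change 0.29, SE 0.043, adjusted p = 5.88e-06). Sc5d, the sterol desaturase, had 112 and 109 CPM with GSI, against 96.5 and 97.4 CPM with DMSO (log2 fold change 0.19, SE 0.054, adjusted p = 0.0149). Nsdhl had 86.2 and 86.8 CPM with GSI, against 79.0 and 72.9 CPM with DMSO (log2 fold change 0.19, SE 0.061, adjusted p = 0.0285). All GSI samples were above both DMSO samples for these, and Sqle, squalene epoxidase, Cyp51 and Fdft1 also rose. Mvd had 112 and 109 CPM with GSI, against 93.0 and 90.9 CPM with DMSO (log2 fold change 0.27, SE 0.054, adjusted p = 0.000416). Fdps had 109.9 and 109.9 CPM with GSI, against 95.8 and 87.9 CPM with DMSO (log2 fold change 0.26, SE 0.056, adjusted p = 0.000786). Insig1 had 308 and 296 CPM with GSI, against 276 and 259.8 CPM with DMSO (log2 fold change 0.17, SE 0.045, adjusted p = 0.00452). Again the groups did not overlap, and each gap was a fraction of the level itself.

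Of the fatty acid genes Fads1 and Scd1 rose with GSI and Acaca fell. Fads1 had 136 and 136 CPM with GSI, against 116 and 120.1 CPM with DMSO (log2 fold change 0.20, SE 0.050, adjusted p = 0.00284). Acaca had 226 and 235 CPM with GSI, against 261 and 259.6 CPM with DMSO (log2 fold change −0.17, SE 0.044, adjusted p = 0.00434). Abcg1 had 88.0 and 87.5 CPM with GSI, against 74.0 and 79.9 CPM with DMSO (log2 fold change 0.19, SE 0.061, adjusted p = 0.0344). Fads1 and Abcg1 were above and Acaca was below in both GSI samples. Abca1, a sterol exporter gene tested here only, had 2.59 and 4.85 CPM with GSI, against 4.66 and 3.67 CPM with DMSO, and did not pass (log2 fold change −0.13, adjusted p = 0.826). Srebf1 had 339 and 341 CPM with GSI, against 363 and 339 CPM with DMSO, and Srebf2 had 418 and 412 CPM with GSI, against 420.5 and 390.1 CPM with DMSO. The groups of both overlapped and neither passed (log2 fold change of Srebf1 −0.041, adjusted p = 0.582, of Srebf2 0.036, adjusted p = 0.646). DESeq2 called 1 member, where 5.03% of all genes were called, against 20.7% in edgeR. The member count with DESeq2 was thus no excess over all genes. Of the 13 called members only Lss and Mvd kept the call whichever library was left out. Each of those fits left 1 library in a group. Summed myeloid markers were at 84.9 to 88.6 CPM with GSI and at 57.1 to 63.4 CPM with DMSO, and their part was not tested. Outside the list, Acss2, which makes acetyl-CoA from acetate (log2 fold change 0.53, adjusted p = 5e-08), Cpt1a (log2 fold change 0.41, adjusted p = 2.12e-08) and the carnitine carrier gene Slc25a20 (log2 fold change 0.29, adjusted p = 0.00323) rose.

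With KYOT2, no member was called in edgeR for WT or for WWAA against GFP, where 0.888% and 0.0897% of genes were called. DESeq2 called 3 members with KYOT2 WT and 0 with WWAA, where 0.875% and 0.237% of all genes were called. In edgeR 10 and 8 members had an unadjusted p under 0.05. Set directly against WWAA, KYOT2 WT had 4 lower members and none higher, where 0.601% of genes were lower, and the median was −0.13. Lss had 296, 293 and 292 CPM with KYOT2 WT, against 359, 381 and 370.4 CPM with WWAA (log2 fold change −0.33, SE 0.041, adjusted p = 0.000576). The GFP samples of Lss, at 329.6, 337 and 331 CPM, lay between them. Stard4 had 194, 189 and 211 CPM with KYOT2 WT, against 233, 245 and 262 CPM with WWAA (log2 fold change −0.32, SE 0.060, adjusted p = 0.0148). Fads1 had 65.7, 63.9 and 67.0 CPM with KYOT2 WT, against 78.1, 73.6 and 81.7 CPM with WWAA (log2 fold change −0.25, SE 0.052, adjusted p = 0.0257). Fasn had 475, 469.6 and 474 CPM with KYOT2 WT, against 523, 540.4 and 588 CPM with WWAA (log2 fold change −0.22, SE 0.047, adjusted p = 0.0297). None of the 4 overlapped between the fusions. Insig1 had 907, 885 and 833 CPM with KYOT2 WT and 990.5, 1023 and 945 CPM with WWAA, against 1027, 1046 and 969 CPM with GFP. Srebf1 had 238, 224 and 203 CPM with KYOT2 WT and 268, 265 and 238 CPM with WWAA, against 265, 259 and 256 CPM with GFP. Both were below GFP in every WT sample without passing (log2 fold change of Insig1 −0.21, adjusted p = 0.0666, Srebf1 −0.23, adjusted p = 0.109). Outside the list Lpin1 was lower with KYOT2 WT than with WWAA (log2 fold change −0.26, adjusted p = 0.00948). Abcg1 had 11.8, 11.5 and 9.31 CPM with KYOT2 WT and 8.69, 8.91 and 8.82 CPM with WWAA, against 10.3, 11.0 and 11.7 CPM with GFP, and was above WWAA in every WT sample without passing (log2 fold change 0.30, adjusted p = 0.269). Between the fusions DESeq2 called 7 members (1.49% of all genes), and Lss kept its call whichever library was left out. For WT against GFP, 4 members were called without WWAA replicate 3, where 2.12% of all genes were called. The count between the fusions was 1 without KYOT2 WT replicate 1 or 2, and 2 without KYOT2 WT replicate 3, WWAA replicate 2 or GFP replicate 2. In those fits 0.703% to 1.41% of all genes were called.

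Across 16 comparisons, many of which share libraries, Abcg1 was called in 10 and Lss in 9. Elovl6 and Fdps were called in 7 each and Srebf1 in 6. Tm7sf2, a sterol reductase, was called in none. Abcg1 was higher in RBPJ-depleted lines, in depleted cells with Biocontrol, with BioNICD1 in control cells and with GSI, and lower after 4-OHT in NICD1-ER cells. Lss was lower in the comparison of both depleted lines with the control, in line 2-12, in depleted cells with BioNICD1 and with KYOT2 WT against WWAA, and higher with BioNICD1 in control cells, with GSI and in depleted cells with Biocontrol. Insig1 and Srebf1 respond to sterol state and LXR in other cells. In the edgeR fit reported, they were called together only at 4 and 8 h of NICD1-ER among the comparisons run. This depended on the setting. With the replicate block both were also called lower in the RBPJ-depleted lines, and DESeq2 called 0 members at 4 h and 1 at 8 h.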

How the data were processed

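RNA sequencing counts were taken from the count table the authors deposited, which holds whole-number read counts per gene symbol with no normalisation. Per the submitters' processing notes, which give no roles, the tools were TopHat2 2.1.1, Picard and deepTools and the genome build was mm9. The strand setting of the counting is not given in the sources used here, so overlapping and antisense genes are uncertain, and so are close paralogues. Of 65 columns 41 were matched to samples by name. The other 24 were not used, because 2 share a heading and the rest name no sample. Region lists in mm9 coordinates were not used here.

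Each of 5 experiments was fitted alone over all genes with edgeR 4.0.16 (R 4.3.3). The steps were filterByExpr, TMM factors, a quasi-likelihood F-test, a prior count of 0.125 and Benjamini-Hochberg adjustment with a threshold of 0.05. The SE is the absolute log2 fold change divided by the square root of F. NICD1-ER replicates 1 and 2 were summed at 4 h (chi-square per gene 0.907) and at 8 h (0.835), over genes with at least 50 counts. The same value was 0.766 for the GSI pair and 0.928 for the 24 h 4-OHT pair. In the depletion experiment every pair of libraries with the same replicate number correlated in its deviations from the group means (0.433 to 0.608), so the blocked counts are printed. This pairing comes from the data and not from the labels.

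Depth ran from 2377028 to 14244209 counts a library, and 3 counts in a library set the limit for a gene at 0. That limit covers counting error only. The fit was tested on simulated data. Alternatives were DESeq2 1.42.0, other size factors (RLE), no filter, the replicate block, fewer groups and each library left out.

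The members and gene lists were chosen with earlier results of these data known. Per-sample values are given for up to 3 called members of each role and comparison with the largest fold changes, for the 3 regulators and for Abca1 and Abcg1, and up to 3 genes of other lists are named. Mbtps1, Eci2, and member values beyond that rule, were chosen after their values were seen. Some genes of the other lists are not reported here. Promoters are RefSeq sequences of build GRCm38.p6, matched by symbol.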

Additional observations from a re-analysis of the deposited data

Results flagged for a closer look

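The effect of BioNICD1 differed between RBPJ-depleted and control cells for 12 of 29 members, by the test of that difference in edgeR. All 12 differences were negative, where 13.3% of all genes were called in that direction. Only Abcg1, Dhcr7, Lss and Scd2 kept the call whichever library was left out. The log2 difference, depleted minus control cells, was −1.93 for Abcg1, −1.11 for Srebf1, −1.04 for Fasn and −0.95 for Dhcr7. It was −0.86 for Mvd, −0.76 for Lss, −0.74 for Hsd17b7 and −0.72 for Scd2. It was −0.71 for Nsdhl, −0.61 for Fdps, −0.35 for Acaca and −0.34 for Stard4.

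Levels in NICD1-ER cells given 4-OHT differed between 24 h and 4 h for 4 of 29 members (13.8%) in edgeR. The share of all genes called in that comparison was 13.4%, and DESeq2 called 0 members. Ethanol was sampled at 24 h only, so the response to 4-OHT and the time of sampling cannot be told apart. The log2 fold change of 24 h over 4 h was 0.23 for Elovl6, 0.20 for Lss, 0.19 for Msmo1 and 0.19 for Insig1.

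For 11 of 29 members, every RBPJ-depleted sample lay above its controls with Biocontrol and below them in the lines without it. The same held for 3.71% of all genes tested in both experiments. With Biocontrol the log2 fold change was 1.03 for Srebf1, 0.74 for Fasn, 0.71 for Hsd17b7 and 0.69 for Acat2. It was 0.57 for Scd2, 0.44 for Acaca, 0.30 for Idi1 and 0.30 for Lss. It was 0.27 for Acly, 0.24 for Stard4 and 0.18 for Scd1. In the lines without Biocontrol the same genes ran from −0.76 (Lss) to −0.34 (Acly). The difference between the experiments was not tested.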

How the results depend on the processing

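None of the 111 called results of single members changed direction under the alternatives run. Of 29 uncalled ones named, 5 changed sign when 1 library was left out. With GSI the log2 fold change ranged from −0.67 to 0.23 for Abca1 (0.038 without DMSO replicate 1, 0.23 without GSI replicate 1), from −0.089 to 0.00745 for Srebf1 and from −0.018 to 0.090 for Srebf2. In depleted cells with Biocontrol it ranged from −0.055 to 0.31 for Srebf2, and between the lines from −0.45 to 0.025 for Elovl6. Counts of called members stayed within 1.5 times the value given under RLE factors, and in the BioNICD1 experiment under every setting that kept all libraries. In the RBPJ-depleted lines together, 1 member was higher and 10 lower, 11 in all. DESeq2 called 19 there (10.4% of all genes), 24 were called with no filter on low counts (15.2%) and 28 with the replicate block (36.8%), against 9.89% in the fit reported. For line 2-12 the count was 22 with no filter (12.1% of all genes) and 26 with the replicate block (31.7%). For line 2-14 it was 8 with DESeq2 (5.98% of all genes), 16 with no filter (10.6%) and 25 with the replicate block (28.0%). For NICD1-ER, DESeq2 called 0 at 4 h, 1 at 8 h, 0 at 24 h and 0 between 24 h and 4 h. The shares of all genes called were 1.87%, 3.33%, 4.57% and 3.26% in that order. With every library as its own sample 5 were called at 8 h (12.8% of all genes). With the replicate block added 5 were called at 4 h (10.3%), 9 at 8 h (14.8%) and 7 between the times (18.8%). For KYOT2 WT, DESeq2 called 3, no filter gave 2, the replicate block 4 and a fit of only the groups compared 2. The shares of all genes called were 0.875%, 1.54%, 2.87% and 1.46% in that order. For KYOT2 WT against WWAA these gave 7, 7, 12 and 2, with shares of 1.49%, 2.32%, 5.09% and 1.02%. With GSI, DESeq2 called 1 (5.03% of all genes, against 20.7% in the fit reported). Without both distant depleted libraries 1 member was called for BioNICD1 in depleted cells and 19 for the difference between effects, where 11.2% and 40.7% of all genes were called.

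With each library left out in turn, the called members ranged from 2 to 22 for both lines, 0 to 19 for line 2-12, 0 to 11 for line 2-14 and 0 to 0 between the lines. They ranged from 2 to 3 at 4 h, 2 to 7 at 8 h, 0 to 4 at 24 h and 0 to 5 between 24 h and 4 h. For KYOT2 the ranges were 0 to 4 for WT, 0 to 0 for WWAA and 1 to 6 for WT against WWAA, and for GSI 4 to 13. For BioNICD1 they were 14 to 18 in control cells and 0 to 1 in depleted cells. For depletion they were 11 to 19 with Biocontrol and 9 to 14 with BioNICD1, and 5 to 15 for the difference between effects. A group left with 1 library was assumed to vary like the other groups. The causes were not tested.

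In NICD1-ER and BioNICD1, libraries of the same number did not all deviate together (correlations of deviations −0.0112 to 0.169 and −0.449 to 0.549). In KYOT2 they were all positive, at 0.0349 to 0.408, where libraries of other numbers were at −0.285 to 0.161. In the GSI experiment the correlation was weak, at 0.0268. Some pairing by number is therefore possible in KYOT2, and the fit reported there uses no block. Libraries correlated best with their own number in 6 of 10 cases for NICD1-ER, 8 of 9 for KYOT2 and 7 of 12 for BioNICD1. For GSI it was 4 of 4, which any positive correlation would give with 2 libraries in each group, so it says nothing about pairing there. Of 140 pairs of member and comparison named, 104 kept their side of the threshold with DESeq2, 27 were no longer called and 9 became called. Groups of 2 libraries, low counts of Abcg1 in the BioNICD1 experiment and of Fads2 and Abca1 throughout, limit what differences could be detected.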
